A study of Mus musculus with 11 samples.

Results

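Genes that copy DNA and divide chromosomes were followed as a set of 46 across primary mouse myoblasts of 2 genotypes and 2 oxygen levels. The set runs from the helicase that opens replication origins, through the polymerases and the enzymes that supply deoxynucleotides, to the kinases, motors and checkpoint proteins of mitosis. Its members were taken by name from the deposited table through their Ensembl mouse gene identifiers. All 46 were among its 22104 genes, and all 46 were among the 14729 genes with values high enough to test.

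Myoblasts are the proliferating precursor cells of skeletal muscle. The cultures came from a leg muscle, the tibialis anterior, of young adult C57BL/6 mice of about 8 weeks whose genotype was wild-type or Bmal1-/-. The Bmal1 protein, whose gene is named Arntl in the table, is the partner of CLOCK in the activator of circadian transcription. All groups share a growth medium that favours proliferation, Ham's F-10 with serum and the mitogen bFGF, and the treatment was 6 h in an incubator at either 21% oxygen, called normoxia here, or 1% oxygen, called hypoxia. The groups are wild-type normoxia with 2 libraries and wild-type hypoxia, knockout normoxia and knockout hypoxia with 3 libraries each. Which part of Bmal1 was removed is not given, nor whether the cells came from a germline knockout of the whole animal, nor how many animals gave the cells.

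DNA replication starts when the loading factors Cdc6 and Cdt1 place the Mcm helicase on origins, after which Cdc45 and the GINS proteins switch the helicase on. Transcription of these genes is known to follow E2F factors as cells enter S phase. The genes of mitosis peak later in the cycle, under a repressor and activator complex that reads a short element called the CHR, often with CCAAT boxes bound by NF-Y nearby. Cells that leave the cycle to form muscle fibres shut off both sets, which is why the set is widely used as a readout of proliferation.

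Promoter sequences show the elements by which replication and mitosis genes are usually told apart. Windows of 250 bases before to 50 after a RefSeq start site on GRCm38.p6 were available for 38 of the 46 genes. Both strands were searched for the E2F letters TTTCCCGC, TTTCGCGC, TTTGCCGC and TTTGGCGC, the CHR letters TTTGAA and the box CCAAT. E2F letters were in 42.1% of the 19 replication genes with a window, in 5.88% of the 17 mitosis genes and in 4.1% of the windows of 10430 tested genes. CHR letters had the opposite distribution, at 15.8% of replication genes and 64.7% of mitosis genes against 11.5% of all windows. CCAAT was in 68.4% of replication genes and 82.4% of mitosis genes, against 38.9% of all windows. CHR and CCAAT stood together in 64.7% of mitosis genes, 10.5% of replication genes and 4.87% of all windows. The replication genes with both were the helicase genes Mcm2 and Cdc45, which held no E2F letters. Top2a and Mki67 were counted neither as replication nor as mitosis genes in these shares.

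The 6 stretches that follow were picked because they span this contrast, from helicase genes with E2F letters to Top2a and mitosis genes with CHR and CCAAT. Each is the 250 bases before the RefSeq start, written 5′ to 3′ on the gene's own strand, and capitals mark E2F, CHR and CCAAT letters on either strand. Those of Mcm5 (chr8:75109259-75109508, plus strand) and Mcm6 (chr1:128359706-128359955, minus strand) hold E2F letters, and those of Rrm2 (chr12:24708004-24708253, plus strand) hold a CCAAT box only. Top2a (chr11:99024190-99024439, minus strand), Cdk1 (chr10:69352913-69353162, minus strand) and Cdc20 (chr4:118437344-118437593, minus strand) hold CHR letters and CCAAT.
Mcm5: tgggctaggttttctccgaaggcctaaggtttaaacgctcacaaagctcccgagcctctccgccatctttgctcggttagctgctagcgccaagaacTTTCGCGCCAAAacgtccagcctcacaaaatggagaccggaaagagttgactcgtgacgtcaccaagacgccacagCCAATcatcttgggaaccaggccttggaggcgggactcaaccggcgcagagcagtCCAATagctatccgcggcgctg
Mcm6: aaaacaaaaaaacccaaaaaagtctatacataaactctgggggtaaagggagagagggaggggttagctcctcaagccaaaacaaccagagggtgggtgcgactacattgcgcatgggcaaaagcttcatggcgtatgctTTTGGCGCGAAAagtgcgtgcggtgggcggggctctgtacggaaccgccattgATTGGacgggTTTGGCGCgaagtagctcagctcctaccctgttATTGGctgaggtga
Rrm2: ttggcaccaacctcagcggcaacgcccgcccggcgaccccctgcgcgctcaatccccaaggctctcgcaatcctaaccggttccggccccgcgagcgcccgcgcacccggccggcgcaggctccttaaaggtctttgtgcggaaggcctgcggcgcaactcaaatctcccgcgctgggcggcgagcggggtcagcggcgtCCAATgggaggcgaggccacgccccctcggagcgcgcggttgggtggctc
Top2a: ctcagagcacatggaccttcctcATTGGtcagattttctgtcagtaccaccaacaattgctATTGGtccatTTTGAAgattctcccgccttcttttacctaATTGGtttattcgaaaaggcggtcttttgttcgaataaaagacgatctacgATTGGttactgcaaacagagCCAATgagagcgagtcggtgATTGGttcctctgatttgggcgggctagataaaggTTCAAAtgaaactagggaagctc
Cdk1: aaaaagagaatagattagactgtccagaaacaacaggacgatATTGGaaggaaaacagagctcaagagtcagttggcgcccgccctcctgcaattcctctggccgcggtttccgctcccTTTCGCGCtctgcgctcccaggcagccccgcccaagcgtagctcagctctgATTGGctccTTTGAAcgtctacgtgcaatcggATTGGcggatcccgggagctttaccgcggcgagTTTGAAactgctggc
Cdc20: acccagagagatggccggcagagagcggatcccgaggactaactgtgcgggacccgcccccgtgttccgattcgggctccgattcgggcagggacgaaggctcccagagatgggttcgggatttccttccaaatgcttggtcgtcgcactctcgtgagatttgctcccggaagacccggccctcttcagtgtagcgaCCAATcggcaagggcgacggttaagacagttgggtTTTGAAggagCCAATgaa

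In Mcm5 and Mcm6 a pair of E2F matches overlap by 4 bases, at -153 to -142 and at -110 to -99 counted from the start, and Mcm6 has another at -47 to -40. Cdk1 carries E2F letters at -131 to -124 as well as CHR letters at -71 to -66 and at -15 to -10. Top2a has 6 CCAAT boxes and CHR letters at -179 to -174 and -23 to -18, and Cdc20 has CHR letters at -18 to -13 between CCAAT boxes. The windows were also searched for letters that clock and hypoxia factors are known to read. The E-box CACGTG, which CLOCK and Bmal1 bind, was in 10.5% of replication genes, 5.88% of mitosis genes and 10.2% of all windows. The hypoxia response core ACGTG, which is also contained in CACGTG, was in 15.8% of replication genes, 35.3% of mitosis genes (6 of 17) and 25.9% of all windows. A match is a description of letters and not a binding site.

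The labels were checked before the set was read. Values are normalized read counts, the reads of a gene divided by a size factor for its library. Arntl counted 264 and 267 in wild-type normoxia, 325, 328 and 322 in wild-type hypoxia, 109, 117 and 98.8 in knockout normoxia and 128, 134 and 128 in knockout hypoxia. Knockout libraries were lower by a log2 difference of -1.29 in normoxia and -1.31 in hypoxia (limma adjusted p = 2.24e-06 and 4.96e-07). Transcript thus remained in each knockout library, and the deleted part is not given. All 12 genes of a hypoxia list, targets of hypoxia-inducible factors such as Adm, Bnip3 and Slc2a1, rose in both genotypes, with a median log2 difference of 2.31 in wild-type and 2.23 in knockout cells. Markers of myoblasts were present in every library, with Myod1 from 7793 to 9502 and Pax7 from 1123 to 1595 normalized counts, although the myoblast marker Msc was near 0 at 0 to 3.11. Libraries held 18707697 to 33613328 reads, with every library from 1% oxygen above every library from 21% oxygen in depth, and the part of depth in the hypoxia values was not tested. The fewest reads behind a value of the set were 209, for Gins1.

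Levels within the set spanned more than 1 order of magnitude per kilobase of exon, a scale that allows genes to be compared. Rrm2, the small subunit of ribonucleotide reductase, was highest at a mean of 2427 normalized counts per kilobase over the 11 libraries. Pcna, the sliding clamp of the polymerases, followed at 1824, then Top2a, the topoisomerase that untangles sister DNA, at 1602, the proliferation marker Mki67 at 1403 and Cdc20, the activator of anaphase, at 1160.4. Lowest per kilobase were the helicase factor Mcm10 at 112, the checkpoint protein gene Mad2l1 at 128 and the checkpoint kinase gene Ttk at 141. These are levels, and no difference between groups is part of them.

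The set varied little between libraries. Within groups the median coefficient of variation of a member was 3.47% to 4.2%, against 6.21% to 7.82% for all tested genes. The comparison was not matched for expression level. Members had at least 209 reads in each library, while tested genes needed only a value of 10 in 2 libraries. Over all 11 libraries the highest value of a member was 1.09 times the lowest for Kif23, a motor of the central spindle, and 1.5 times for Rfc4, a subunit of the clamp loader. Members tended to be high or low in the same libraries of a group. Replicate 1 of wild-type normoxia held the highest value of its group for 33 of 46 members, and replicate 2 of wild-type hypoxia did so for 29. Replicate 3 was lowest for 31 members in knockout normoxia and for 30 in knockout hypoxia.

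Summed over the 46 genes, the level was 122023 ± 3188 normalized counts in wild-type normoxia (SD, n = 2) and 123379 ± 2706 in wild-type hypoxia (SD, n = 3). It was 132773 ± 2801 in knockout normoxia and 132971 ± 2088 in knockout hypoxia (SD, n = 3 each). Hypoxia left the sum at 101% of the wild-type normoxia mean in wild-type cells, while both knockout groups stood at 109%. As a share of all normalized counts, the set was 0.537% in wild-type normoxia and 0.525% in wild-type hypoxia. That share was 0.570% in knockout normoxia and 0.563% in knockout hypoxia. The direction of the small wild-type hypoxia difference thus depended on the scale. No knockout library fell as low as any wild-type library, since the highest wild-type sum was 126486 and the lowest knockout sum 129581. Against the wild-type normoxia mean, each of the 7 functional groups had a mean above 100% in both knockout groups. The smallest was 104% for the spindle checkpoint genes in hypoxia and the largest 114% for deoxynucleotide synthesis in normoxia. Wild-type hypoxia means ran from 99.1% for mitotic cyclins and kinases to 103% for Top2a with Mki67. In the spindle motor group wild-type normoxia replicate 1, at 104.2%, was above knockout hypoxia replicate 3, at 103.3%. In the licensing group wild-type hypoxia replicate 2, at 104.23%, was above knockout normoxia replicate 3, at 104.0%.

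**Figure D1:**
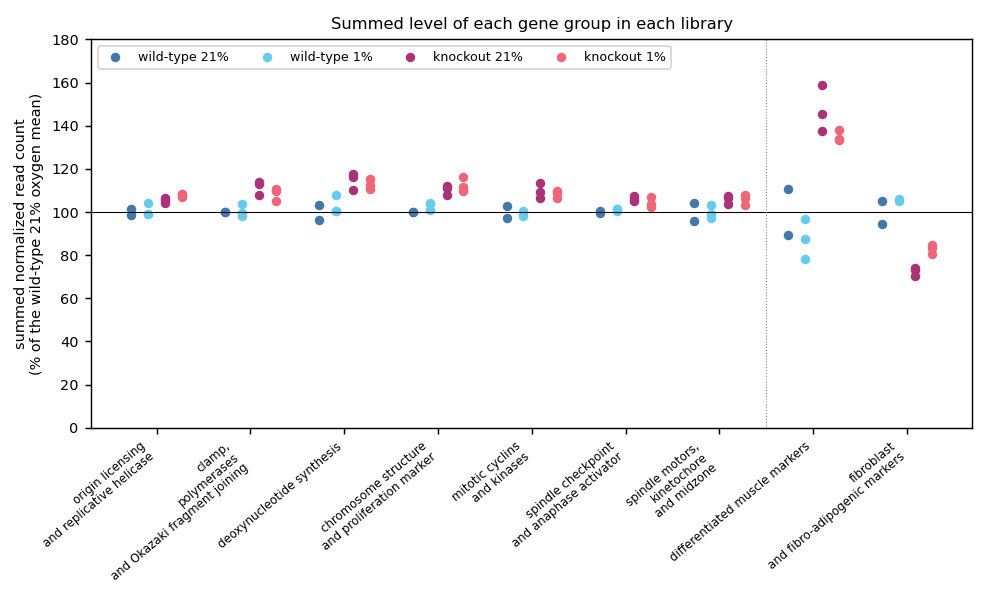
Summed normalized read count of each functional group in each library, as a percentage of the wild-type normoxia mean, with 1 point per library in 4 colours for the groups of genotype and oxygen. To the right of the dotted line are markers of differentiated muscle and of fibroblasts. The 7 functional groups of the set lie near 100% in wild-type cells and at means of 104% to 114% in knockout cells, and the marker lists lie farther from 100%, at 147% and 72.5% in knockout normoxia.

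Hypoxia for 6 h in wild-type cells moved none of the 46 genes past the threshold, an adjusted p under 0.05 over all tested genes. Over all genes 1.7% were called higher and 0.468% lower. The median log2 difference of the set was 0.014, against -0.0025 for all tested genes, and 30 of 46 members were positive. All 46 confidence intervals (95%) lay within 0.5 of 0, with bounds from -0.33 to 0.4, so changes beyond 1.5-fold were outside the interval of each member. At an unadjusted p under 0.05 there were 10 members, 5 of them higher, by limma, and edgeR and DESeq2 each also gave 10. DESeq2 called 1 of them, Cdc20. By limma, 2000 of the 14729 tested genes had an unadjusted p under 0.05 in this comparison. Cells of a culture are measured together here, so fewer cycling cells and less RNA per cycling cell cannot be told apart in any comparison of these libraries.

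Cdc20, which switches on the anaphase-promoting complex, had the lowest adjusted p in wild-type hypoxia. It counted 2421 and 2312 in wild-type normoxia, 2016, 2051 and 2058 in wild-type hypoxia, 2183, 2173 and 2383 in knockout normoxia and 2039.7, 2024 and 2184 in knockout hypoxia. The wild-type hypoxia values lay below both wild-type normoxia values (log2 difference -0.21, SE 0.055, limma adjusted p = 0.0692), and the adjusted p was 0.0239 by DESeq2 and 0.0428 by limma without knockout normoxia replicate 3. In knockout cells the groups overlapped (log2 difference -0.11, SE 0.049, limma adjusted p = 0.269).

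Ccnb1, the cyclin that carries cells into mitosis, counted 4398 and 4197 in wild-type normoxia, 3922, 3977 and 3859 in wild-type hypoxia, 4830.4, 4530.0 and 4468 in knockout normoxia and 4386, 4292 and 4285 in knockout hypoxia. Its wild-type hypoxia values were below those of normoxia without overlap (log2 difference -0.13, SE 0.045, limma adjusted p = 0.191), as were those of knockout cells (log2 difference -0.092, SE 0.04, limma adjusted p = 0.249), and neither difference was called. Some mitotic kinases had values on the other side of 0 in wild-type cells. Aurka, the kinase of centrosomes and spindle poles, counted 1183 and 1155 in wild-type normoxia, 1289.5, 1367 and 1397 in wild-type hypoxia, 1417, 1403 and 1301 in knockout normoxia and 1471, 1506 and 1397 in knockout hypoxia, with hypoxia above normoxia in wild-type cells (log2 difference 0.21, SE 0.059, limma adjusted p = 0.107). Bub1, a kinase of the spindle checkpoint, counted 1707 and 1678 in wild-type normoxia, 1938, 1975 and 1912 in wild-type hypoxia, 2035, 2175 and 1933 in knockout normoxia and 2276, 2169 and 2103 in knockout hypoxia. It too was higher in each wild-type hypoxia library than in each normoxia library (log2 difference 0.20, SE 0.056, limma adjusted p = 0.104).

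Among replication genes, the origin loading factor Cdc6 had the largest log2 difference of wild-type hypoxia. Cdc6 counted 712 and 628 in wild-type normoxia, 746, 844 and 773 in wild-type hypoxia, 875, 838 and 782 in knockout normoxia and 875, 935 and 874 in knockout hypoxia, with no overlap in wild-type cells (log2 difference 0.23, SE 0.077, limma adjusted p = 0.179). Pole, the catalytic subunit of polymerase epsilon, counted 1827 and 1880.3 in wild-type normoxia, 1604, 1714 and 1673 in wild-type hypoxia, 2099, 2090.1 and 2009 in knockout normoxia and 2051, 2086 and 2046 in knockout hypoxia and was lower in wild-type hypoxia without overlap (log2 difference -0.16, SE 0.048, limma adjusted p = 0.138). The kinetochore motor gene Cenpe counted 2794 and 2659 in wild-type normoxia, 2779, 3046 and 3047 in wild-type hypoxia, 3001, 2988 and 3037 in knockout normoxia and 3109, 3058 and 3021 in knockout hypoxia, and its wild-type groups overlapped (log2 difference 0.12, SE 0.049, limma adjusted p = 0.312). Between wild-type groups 9 members did not overlap in the higher direction and 6 in the lower. Over all genes 15.4% and 14.4% did not overlap in those directions, so the share of members was near the background.

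In knockout cells hypoxia raised 1 member, Cdt1, and lowered none, where 3.15% of all genes were called higher and 0.937% lower. The median log2 difference was -0.011, against -0.0052 for all tested genes, and 20 of 46 members were positive. Intervals ran from -0.32 to 0.33 and again all lay within 0.5 of 0. At an unadjusted p under 0.05 there were 8 members by limma, 4 of them higher, with 8 by edgeR and 7 by DESeq2. By limma 2584 of the 14729 tested genes had such a p-value, so the share of members was near the background. Members that did not overlap between the groups were 3 higher and 4 lower, where all genes gave 11.9% and 10.7%.

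Cdt1, which loads the helicase together with Cdc6 and lies at chr8:122568015-122573554, counted 903 and 828 in wild-type normoxia, 944, 921 and 971 in wild-type hypoxia, 869, 815 and 878 in knockout normoxia and 1019, 987 and 966 in knockout hypoxia. Its knockout hypoxia values were above all 3 knockout normoxia values (log2 difference 0.22, SE 0.055, limma adjusted p = 0.0444). The call was near the threshold and was lost when any of 9 libraries was left out, each of wild-type hypoxia, knockout normoxia and knockout hypoxia, with adjusted p from 0.0523 to 0.167. Without a wild-type normoxia library it remained. The wild-type difference was 0.13 (0.387 as limma adjusted p), also without overlap.

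Other functional groups gave values on either side of 0 in knockout hypoxia. Rfc3, a clamp loader subunit, counted 521 and 545 in wild-type normoxia, 540.4, 532 and 537 in wild-type hypoxia, 576, 606 and 557 in knockout normoxia and 493, 557 and 487 in knockout hypoxia and was lower without overlap in knockout cells (log2 difference -0.18, SE 0.066, limma adjusted p = 0.174). Cenpf, a kinetochore protein gene of late S phase and mitosis, counted 3313 and 2779 in wild-type normoxia, 2968, 3172 and 2969 in wild-type hypoxia, 2896, 3137 and 2844 in knockout normoxia and 3628, 3216 and 3228 in knockout hypoxia and was higher without overlap (log2 difference 0.18, SE 0.068, limma adjusted p = 0.18). Plk1, a kinase that acts at centrosomes and kinetochores, counted 982 and 881 in wild-type normoxia, 885, 926 and 985 in wild-type hypoxia, 881, 799.6 and 931 in knockout normoxia and 900.1, 970.0 and 933 in knockout hypoxia, and its groups overlapped (log2 difference 0.10, SE 0.069, limma adjusted p = 0.477). All 8 clamp, polymerase and Okazaki fragment genes had a negative log2 difference in knockout hypoxia, from -0.18 to -0.0032, where 7 of the 8 were positive in wild-type hypoxia, and none was called in either. Summed over this group, wild-type hypoxia replicates 1, 2 and 3 stood at 99.7%, 103.9% and 98.0% of the wild-type normoxia mean. Only replicate 2 was thus above it.

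**Figure D2:**
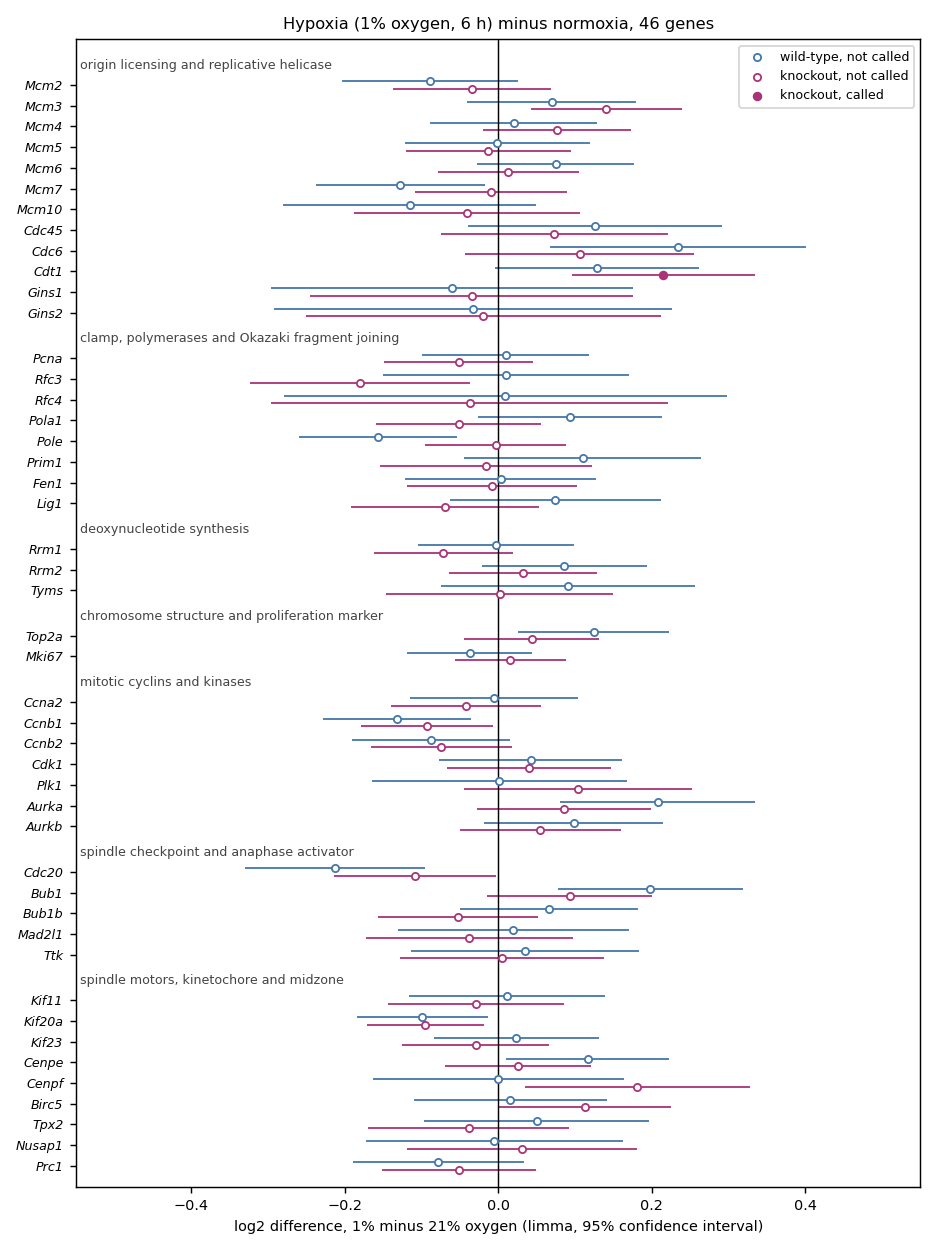
Log2 difference of 1% minus 21% oxygen for each of the 46 genes, in wild-type cells (blue) and knockout cells (purple), with 95% confidence intervals from limma and the genes arranged by function. Filled points passed an adjusted p under 0.05, and only Cdt1 in knockout cells, at 0.22, is filled. No interval reaches beyond 0.5 on either side of 0.

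**Figure D3:**
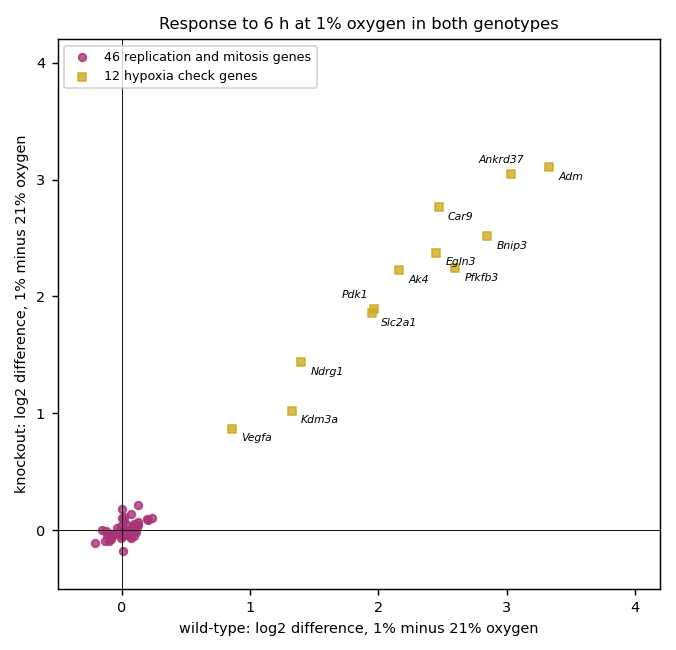
Log2 difference of 1% minus 21% oxygen in wild-type cells (horizontal) and knockout cells (vertical) for the 46 genes (circles) and the 12 hypoxia check genes (squares), 1 point per gene. The 46 genes cluster around 0, between -0.21 and 0.23, while the check genes lie between 0.86 and 3.33 in wild-type cells.

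More members were called between genotypes than between oxygen levels, and the same was true of all tested genes. In normoxia 8 members were higher in knockout cells and none was lower, where all genes gave 3.44% higher and 5.66% lower. They were Cdc6, Prim1, Rrm2, Top2a, Ccna2, Aurka, Aurkb and Bub1, with log2 differences of 0.18 to 0.31. In hypoxia 6 were higher and none was lower, where all genes gave 3.33% higher and 5.61% lower. They were Mcm4, Pole, Rrm2, Top2a, Ccnb1 and Cdk1, at 0.14 to 0.31. Rrm2 and Top2a were in both lists, 2 of 8 and 2 of 6. These comparisons share no library, but all groups share a variance estimate per gene, so the lists are not independent.

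The differences were small and leaned one way. Median log2 differences of the set were 0.11 in normoxia and 0.088 in hypoxia, against 0.0049 and 0.0045 for all tested genes. Positive values were found for 41 of 46 members in each comparison, and for 37 of 46 in both. In normoxia Gins2, Cdt1, Plk1, Cdc20 and Cenpf were negative, and in hypoxia Gins2, Rfc3, Tyms, Bub1b and Kif23, none of them called. Without single libraries the positive count ranged from 37 to 41 in normoxia and from 39 to 42 in hypoxia. Members tended to be high or low in the same libraries, so they are not independent observations. Knockout libraries lay above every wild-type library for 24 members in normoxia, where all genes gave 18.8% higher and 19.6% lower, and for 26 in hypoxia, where all genes gave 12.4% and 13.9%. No member lay wholly below. Unadjusted p-values under 0.05 numbered 20 in normoxia and 19 in hypoxia, each in the higher direction. Of the 14729 tested genes, 3451 in normoxia and 3089 in hypoxia had such a p-value by limma, in either direction.

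**Figure D4:**
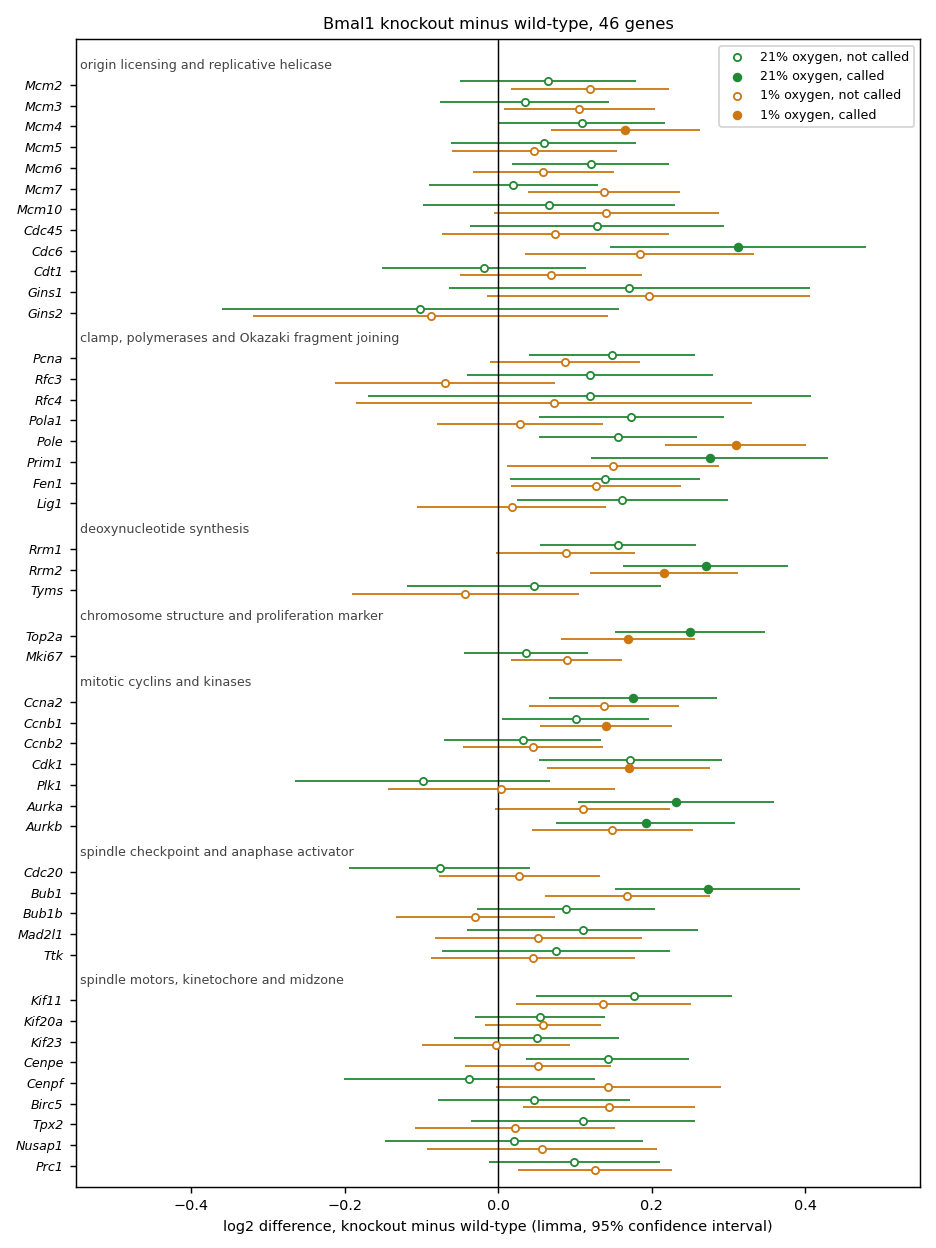
Log2 difference of knockout minus wild-type for each of the 46 genes at 21% oxygen (green) and 1% oxygen (orange), with 95% confidence intervals from limma. Filled points passed an adjusted p under 0.05, 8 at 21% oxygen and 6 at 1% oxygen. Most points lie right of 0, 41 of 46 at each oxygen level.

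Of the origin licensing and helicase genes, 1 of 12 was called higher at each oxygen level. Cdc6 was higher in knockout normoxia than in wild-type normoxia without overlap (log2 difference 0.31, SE 0.077, limma adjusted p = 0.0217), and in hypoxia it missed the threshold (log2 difference 0.18, SE 0.069, limma adjusted p = 0.136). Mcm4, a subunit of the helicase, counted 2836 and 2751 in wild-type normoxia, 2707, 2966 and 2831 in wild-type hypoxia, 3135, 2982 and 2926 in knockout normoxia and 3169.6, 3251 and 3113 in knockout hypoxia. It was higher in hypoxia (log2 difference 0.17, SE 0.045, limma adjusted p = 0.0343), and in normoxia its adjusted p was 0.209 at 0.11. Mcm2, another helicase subunit and a usual marker of licensed cells, counted 2248 and 2134 in wild-type normoxia, 1980.5, 2142 and 2058 in wild-type hypoxia, 2178, 2355 and 2343 in knockout normoxia and 2179, 2273 and 2258 in knockout hypoxia, with adjusted p of 0.512 and 0.165. Gins1, part of the complex that activates the helicase, counted 224 and 247 in wild-type normoxia, 221, 226 and 229 in wild-type hypoxia, 268, 297 and 232 in knockout normoxia and 278, 252 and 246 in knockout hypoxia and had the largest log2 difference of this group in hypoxia (log2 difference 0.20, SE 0.098, limma adjusted p = 0.279). Its wild-type hypoxia libraries stood below the knockout ones, and in normoxia the groups overlapped.

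Polymerase genes gave the smallest adjusted p of the set. Pole, at chr5:110286306-110337474, was higher in knockout hypoxia (log2 difference 0.31, SE 0.043, limma adjusted p = 0.000321), a 1.24-fold level with an interval of 1.16 to 1.32. In normoxia it also did not overlap but missed the threshold (log2 difference 0.16, SE 0.048, limma adjusted p = 0.0588), and wild-type hypoxia was the group with the lowest values. Prim1, the primase subunit that starts each Okazaki fragment, counted 608 and 637 in wild-type normoxia, 624, 703 and 691 in wild-type hypoxia, 752, 759.6 and 749 in knockout normoxia and 799, 729 and 710.3 in knockout hypoxia. It was higher in knockout normoxia (log2 difference 0.28, SE 0.072, limma adjusted p = 0.0286), and the hypoxia difference was not called (log2 difference 0.15, SE 0.064, limma adjusted p = 0.198). Pcna counted 4181 and 4149.9 in wild-type normoxia, 4225, 4334 and 4029.7 in wild-type hypoxia, 4767, 4709.9 and 4382 in knockout normoxia and 4468, 4615 and 4289 in knockout hypoxia and was not called in normoxia (log2 difference 0.15, SE 0.05, limma adjusted p = 0.0887) or hypoxia (log2 difference 0.087, SE 0.045, limma adjusted p = 0.302), although the normoxia groups did not overlap.

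Ribonucleotide reductase supplies the building blocks of new DNA, and its small subunit Rrm2, at chr12:24708241-24714146, was higher in knockout cells at both oxygen levels. Rrm2 counted 6118 and 5717 in wild-type normoxia, 5982, 6626 and 6244 in wild-type hypoxia, 7289, 7152 and 6961 in knockout normoxia and 7322, 7496 and 7071 in knockout hypoxia. All knockout values were above all wild-type values (log2 difference 0.27, SE 0.05, limma adjusted p = 0.00377 in normoxia and log2 difference 0.22, SE 0.045, limma adjusted p = 0.00697 in hypoxia). The large subunit Rrm1 counted 7574 and 7105 in wild-type normoxia, 7298, 7602 and 7067 in wild-type hypoxia, 8414, 8325 and 7796 in knockout normoxia and 7713, 7879 and 7744 in knockout hypoxia and missed the threshold in normoxia (log2 difference 0.16, SE 0.047, limma adjusted p = 0.0562) and hypoxia (log2 difference 0.088, SE 0.042, limma adjusted p = 0.257) without overlap in either. Tyms, which makes the thymidine nucleotide, counted 1253 and 1120.0 in wild-type normoxia, 1257, 1351 and 1183 in wild-type hypoxia, 1257, 1282 and 1135 in knockout normoxia and 1235, 1283 and 1159 in knockout hypoxia and overlapped in both comparisons, at log2 differences of 0.046 and -0.043.

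Top2a, at chr11:98992943-99024189, was likewise higher in knockout cells in normoxia and hypoxia. It counted 12836 and 12540.0 in wild-type normoxia, 14288, 14124 and 13099.6 in wild-type hypoxia, 15229.7, 15325 and 14700.1 in knockout normoxia and 16177, 15241 and 15236 in knockout hypoxia, so that each knockout value exceeded each wild-type value (log2 difference 0.25, SE 0.045, limma adjusted p = 0.00336 in normoxia and log2 difference 0.17, SE 0.041, limma adjusted p = 0.018 in hypoxia). Mki67, the antigen scored as Ki-67, counted 13794 and 14157 in wild-type normoxia, 13437, 13592 and 13824 in wild-type hypoxia, 14635, 14327 and 14026 in knockout normoxia and 14821, 14569 and 14071 in knockout hypoxia. Its log2 differences were 0.036 in normoxia, with an interval of -0.045 to 0.12, and 0.089 in hypoxia, with an interval of 0.017 to 0.16, and neither was called.

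Among the mitotic cyclins and kinases 3 of 7 were called in normoxia and 2 of 7 in hypoxia. Ccna2, the cyclin of S phase and mitotic entry, counted 4117 and 3875 in wild-type normoxia, 4106, 3988 and 3851 in wild-type hypoxia, 4596, 4664 and 4282 in knockout normoxia and 4411, 4491 and 4243 in knockout hypoxia. It was higher in knockout normoxia (log2 difference 0.18, SE 0.051, limma adjusted p = 0.0467), and in hypoxia the groups did not overlap but the threshold was missed (log2 difference 0.14, SE 0.045, limma adjusted p = 0.0811). Cdk1, the kinase that cyclins of the A and B types activate, counted 3019.5 and 2797 in wild-type normoxia, 2902, 3107 and 2973 in wild-type hypoxia, 3476, 3239 and 3118 in knockout normoxia and 3458, 3323 and 3323 in knockout hypoxia and was called in hypoxia (log2 difference 0.17, SE 0.049, limma adjusted p = 0.048) but not in normoxia (log2 difference 0.17, SE 0.055, limma adjusted p = 0.0711), at nearly the same log2 difference. Ccnb1 gave the same pattern (log2 difference 0.14, SE 0.04, limma adjusted p = 0.0432 in hypoxia and log2 difference 0.10, SE 0.045, limma adjusted p = 0.194 in normoxia). Aurka was higher in knockout normoxia (log2 difference 0.23, SE 0.059, limma adjusted p = 0.0252) and not called in hypoxia (log2 difference 0.11, SE 0.053, limma adjusted p = 0.257). Aurkb, the kinase of the chromosomal passenger complex, counted 1053 and 1022 in wild-type normoxia, 1110.3, 1122 and 1098 in wild-type hypoxia, 1213, 1153 and 1189.6 in knockout normoxia and 1248, 1173 and 1273 in knockout hypoxia, higher in knockout normoxia (log2 difference 0.19, SE 0.054, limma adjusted p = 0.042) and not called in hypoxia (log2 difference 0.15, SE 0.049, limma adjusted p = 0.0793).

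Checkpoint and spindle genes gave 1 call between them. Bub1 was the only called member of the 5 checkpoint and anaphase genes, higher in knockout normoxia (log2 difference 0.27, SE 0.056, limma adjusted p = 0.00723), and it missed the threshold in hypoxia (log2 difference 0.17, SE 0.05, limma adjusted p = 0.0534), where edgeR and DESeq2 called it at adjusted p of 0.048 and 0.0324. Bub1b, a kinase-like protein gene of the same checkpoint, counted 2822 and 2899.8 in wild-type normoxia, 3061, 2958 and 2968 in wild-type hypoxia, 3049, 3069.6 and 3009.9 in knockout normoxia and 2878, 2769 and 3170.1 in knockout hypoxia, with overlap in hypoxia (log2 difference -0.03, SE 0.048, limma adjusted p = 0.805). Cdc20 was not called in normoxia (log2 difference -0.076, SE 0.055, limma adjusted p = 0.444) or hypoxia (log2 difference 0.028, SE 0.049, limma adjusted p = 0.823).

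None of the 9 motor, kinetochore and midzone genes was called in either genotype comparison, and 8 of the 9 were positive in each. Kif11, the motor that pushes spindle poles apart, counted 3159 and 2846 in wild-type normoxia, 2936, 3127 and 3005 in wild-type hypoxia, 3535, 3436 and 3211 in knockout normoxia and 3464, 3332 and 3180.3 in knockout hypoxia and had the largest normoxia value (log2 difference 0.18, SE 0.059, limma adjusted p = 0.0828). Birc5, the passenger protein survivin, counted 1216 and 1129 in wild-type normoxia, 1152, 1218 and 1185 in wild-type hypoxia, 1268, 1187 and 1179 in knockout normoxia and 1265, 1336 and 1328 in knockout hypoxia and had the largest hypoxia value (log2 difference 0.14, SE 0.052, limma adjusted p = 0.117). The other members of the group, Kif20a, Kif23, Cenpe, Cenpf, Tpx2, Nusap1 and Prc1, ranged from -0.038 to 0.14 over the 2 comparisons.

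**Figure D5:**
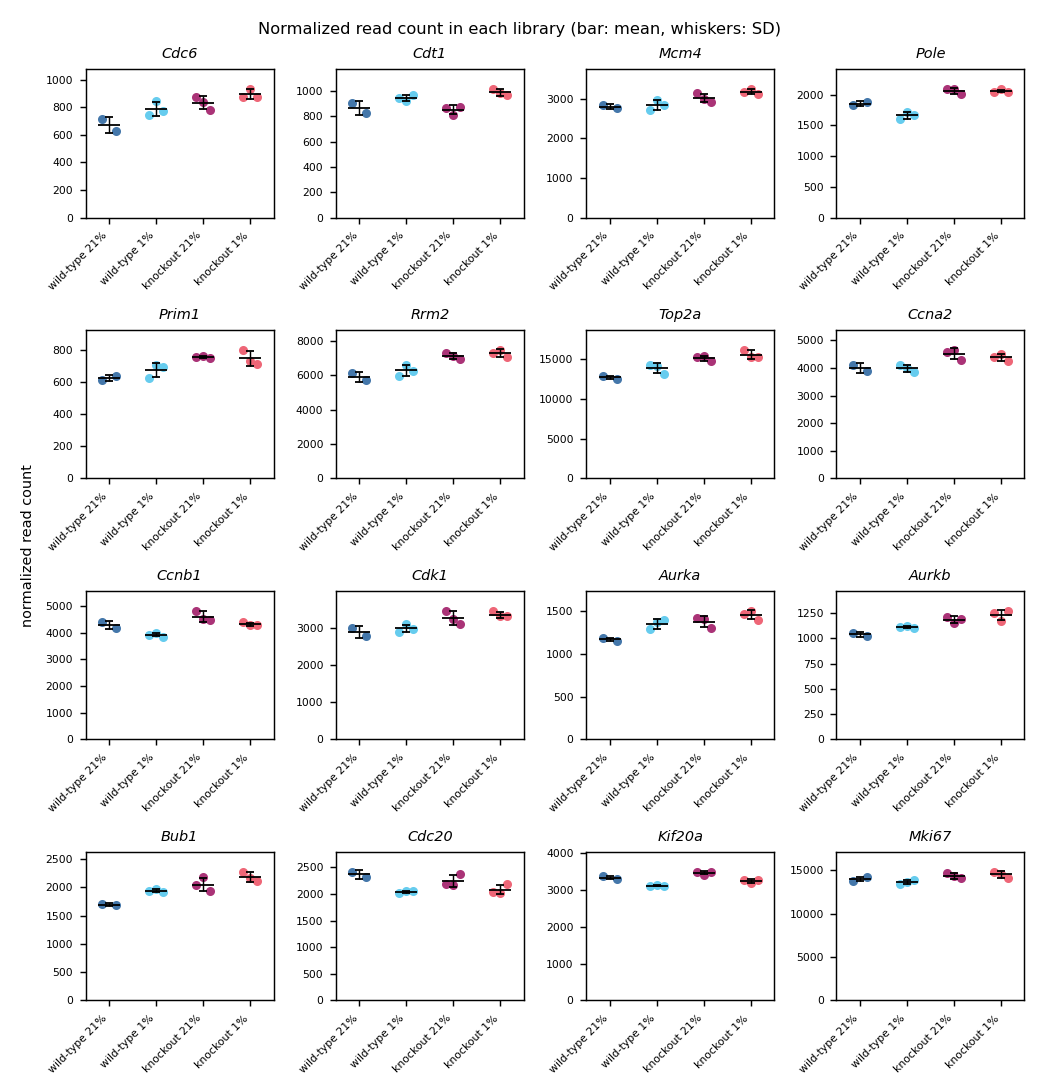
Normalized read count of 16 members in each library, with 1 panel per gene, 1 point per library, the group mean as a bar and the SD as whiskers, on axes that start at 0. Pole, Rrm2 and Top2a are higher in each knockout library than in each wild-type library, while Mki67 stays between 13437 and 14821 in all 11.

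How many members were called in each genotype comparison depended on single libraries. In normoxia the count of 8 fell to 1 without wild-type replicate 2, when only Top2a passed, at an adjusted p of 0.0445, and Rrm2 and Bub1 were at 0.0653 and 0.0668. It fell to 4 without wild-type replicate 1 and to 3 without knockout replicate 1 or without knockout replicate 2, and rose to 11 without knockout replicate 3. In hypoxia the count of 6 fell to 2 without wild-type replicate 3 or knockout replicate 1, and to 3 without wild-type replicate 1, knockout replicate 2 or knockout replicate 3. Pole and Rrm2 passed in hypoxia whichever library was left out, and so did Top2a in normoxia. The direction did not turn for any of the called members in any alternative run.

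Whether hypoxia acted differently in the genotypes was tested by subtracting the wild-type effect from the knockout effect. None of the 46 members passed, where 0.00679% of all genes were called higher, a single gene, and 0% lower. The median log2 difference of the effects was -0.034, and members ranged from -0.19 for Rfc3 to 0.18 for Cenpf. At an unadjusted p under 0.05 there was 1 member, Pole at 0.15 (limma adjusted p = 0.917), and edgeR and DESeq2 gave 1 member each. Of the 14729 tested genes, 784 had such a p-value by limma. Intervals of the difference reached from -0.43 to 0.4, so differences of the effects up to that size were not resolved for every member.

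Averages over the other factor use more libraries and were added after the separate comparisons had been seen. They draw on the same libraries and are not further evidence. Averaged over genotypes, hypoxia raised Cdt1 (log2 difference 0.17, SE 0.041, limma adjusted p = 0.0224), Bub1 (log2 difference 0.15, SE 0.038, limma adjusted p = 0.032) and Aurka (log2 difference 0.15, SE 0.04, limma adjusted p = 0.0391). It lowered Cdc20 (log2 difference -0.16, SE 0.037, limma adjusted p = 0.0169), Ccnb1 (log2 difference -0.11, SE 0.03, limma adjusted p = 0.0376) and Kif20a, a motor of the central spindle (log2 difference -0.097, SE 0.027, limma adjusted p = 0.042). All genes gave 4.89% higher and 2.56% lower. The higher count was 0 or 1 without any of 6 libraries (wild-type normoxia replicate 2, wild-type hypoxia replicate 2, knockout normoxia replicates 2 and 3, knockout hypoxia replicates 1 and 2). The lower count was 0 without wild-type normoxia replicate 1, 2 without knockout normoxia replicate 3 and 1 without any other library.

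Averaged over oxygen levels, 17 members were higher in knockout cells and none was lower, where all genes gave 7.39% higher and 9.8% lower. To the 12 members called in at least 1 oxygen level it added Pcna, Fen1, Rrm1, Kif11 and Prc1. Fen1 is the nuclease that trims Okazaki fragments (log2 difference 0.13, SE 0.039, limma adjusted p = 0.0285), and Prc1 bundles microtubules of the central spindle (log2 difference 0.11, SE 0.035, limma adjusted p = 0.039). By function the 17 comprised 2 of 12 licensing and helicase genes, 4 of 8 clamp and polymerase genes, 2 of 3 deoxynucleotide genes, Top2a, 5 of 7 cyclins and kinases, 1 of 5 checkpoint genes and 2 of 9 spindle genes. The count was 10 without wild-type normoxia replicate 2, and 43 of 46 members were positive.

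Replication and mitosis genes outside the set were read from further lists. Of 43 other replication genes 42 were positive in normoxia and 38 in hypoxia, with median log2 differences between genotypes of 0.13 and 0.095. The medians of all tested genes were 0.0049 and 0.0045. Of all tested genes 3.44% were called higher and 5.66% lower in normoxia, and 3.33% and 5.61% in hypoxia. Called higher were Cdc7, the kinase that fires origins, in normoxia (log2 difference 0.37, SE 0.088, limma adjusted p = 0.0182), and Dnmt1 (log2 difference 0.17, SE 0.036, limma adjusted p = 0.00732) and Uhrf1 (log2 difference 0.23, SE 0.052, limma adjusted p = 0.0134), which copy DNA methylation behind the fork, in hypoxia. None was lower, and the share of replication genes called higher was near that of all tested genes. Of 63 other mitosis genes 54 and 59 were positive, 12 were called higher in normoxia and 5 in hypoxia, and 1 was lower in both. The smallest adjusted p of the higher genes were those of the condensin genes Smc2 (log2 difference 0.27, SE 0.052, limma adjusted p = 0.00537) and Ncapg (log2 difference 0.22, SE 0.051, limma adjusted p = 0.0139) and the kinetochore gene Nuf2 (log2 difference 0.28, SE 0.062, limma adjusted p = 0.0126) in normoxia. In hypoxia they were those of Mybl2, a transcription factor of mitotic genes (log2 difference 0.38, SE 0.086, limma adjusted p = 0.0124), the condensin gene Ncapd2 (log2 difference 0.30, SE 0.07, limma adjusted p = 0.0147) and the motor gene Kif15 (log2 difference 0.20, SE 0.05, limma adjusted p = 0.0211). The 12 mitosis genes became 1 without either wild-type normoxia replicate and 5 or 4 without knockout normoxia replicate 1 or 2. The 5 became 1 without wild-type hypoxia replicate 1 or 2 or knockout hypoxia replicate 1 or 2, and 3 without the remaining library of either group. Cdc7 lost its call without either wild-type normoxia replicate, and Dnmt1 kept its call in all 21 alternatives run.

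Cdc25b went the other way by a larger amount. It encodes a phosphatase that activates Cdk1 at mitotic entry, and it was the mitosis gene that fell in knockout cells. Cdc25b counted 1085 and 1164 in wild-type normoxia, 1148, 1100.0 and 1184 in wild-type hypoxia, 647, 603 and 555 in knockout normoxia and 598, 605 and 685 in knockout hypoxia. Each knockout value was below each wild-type value, by log2 difference -0.90, SE 0.08, limma adjusted p = 6.67e-06 in normoxia and log2 difference -0.86, SE 0.071, limma adjusted p = 3.21e-06 in hypoxia. The call held in all 21 alternatives of each comparison, at log2 differences of -0.96 to -0.85 in normoxia and -0.93 to -0.83 in hypoxia.

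Hypoxia moved few of the other genes as well. In wild-type cells 1 of 43 replication and 1 of 63 mitosis genes were called, and in knockout cells 0 and 1. Over all tested genes 1.7% were called higher and 0.468% lower in wild-type cells, and 3.15% and 0.937% in knockout cells. Few calls are thus not particular to these lists. Chaf1a, a subunit of the chromatin assembly factor that follows the fork, counted 436 and 481 in wild-type normoxia, 595, 629.8 and 623 in wild-type hypoxia, 555, 472 and 521 in knockout normoxia and 591, 643 and 634 in knockout hypoxia and rose in wild-type cells (log2 difference 0.43, SE 0.081, limma adjusted p = 0.0112) but was not called in knockout cells (log2 difference 0.27, SE 0.072, limma adjusted p = 0.0528). The difference between the genotypes was not called either (limma adjusted p = 0.917), and without wild-type normoxia replicate 1 the wild-type call was lost at an adjusted p of 0.144. Ckap2, a spindle microtubule protein gene, counted 2301 and 2302 in wild-type normoxia, 1937, 2014 and 1958 in wild-type hypoxia, 2532, 2619.8 and 2321 in knockout normoxia and 2054, 2035 and 2081 in knockout hypoxia. It fell in wild-type (log2 difference -0.22, SE 0.053, limma adjusted p = 0.0437) and knockout cells (log2 difference -0.27, SE 0.047, limma adjusted p = 0.00433), and the wild-type call held in 8 of 21 alternatives and the knockout call in all 21. None of the other genes in these lists was called in either hypoxia comparison.

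Markers of other cell states moved with genotype beside the set, and their part in the result was not tested. Of 12 markers of differentiated muscle, such as Myh3 and Acta1, 8 were higher in knockout normoxia and 9 in knockout hypoxia, and all 12 were positive in each. Their sum was 44664 to 55256 normalized counts in wild-type normoxia and 39091 to 48398 in wild-type hypoxia, against 68786 to 79417 in knockout normoxia and 66648 to 68998 in knockout hypoxia. The 8 became 2 without wild-type normoxia replicate 1. Of 8 tested markers of fibroblasts and fibro-adipogenic cells, such as Pdgfra and Mfap5, 7 were lower in each comparison. Their sum was 17544 to 19522 and 19483 to 19671 in the wild-type groups, against 13046 to 13712 and 14943 to 15735 in the knockout groups. The fibroblast markers Pi16 and Dpt were near 0 in every library, at 0 to 4.22.

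Of 7 tested pericyte and smooth muscle markers, Pdgfrb, Cspg4 and Acta2 were lower in knockout cells at both oxygen levels. The other 4 (Myh11, Rgs5, Abcc9 and Notch3) were not called at either oxygen level, with 3 of the 7 markers positive in normoxia and 2 in hypoxia, and Abcc9 was higher in the average over oxygen levels (log2 difference 0.59, SE 0.17, limma adjusted p = 0.0297). The sums of that list ran from 34743 to 35539 in wild-type normoxia to 26261 to 26714 in knockout hypoxia. Endothelial markers summed to 80.3 to 100.5 in wild-type normoxia and 40.7 to 60.5 in knockout hypoxia, and leukocyte markers to 18.6 to 50.3 over all libraries, so both were near 0. The 8 tested myoblast markers were mixed, with 4 positive in knockout normoxia and 6 in knockout hypoxia. Myf5 and Chrna1 were higher at both oxygen levels, Itga7 was higher in hypoxia, and none was lower. In the hypoxia comparisons none of the 12 differentiated muscle markers was called, Acta2 was lower in both genotypes, the myoblast marker Vcam1 was lower in knockout cells (log2 difference -0.25, SE 0.045, limma adjusted p = 0.00495), and 3 of 8 fibroblast markers were higher in knockout cells.

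Position and neighbouring genes limit some values. Lig1, Rrm1, Mki67, Plk1 and Prc1 are on chromosome 7, as Arntl is, with Plk1 the nearest at 8.85 Mb from it and Rrm1 next at 10.7 Mb. None of the 5 was called in the separate genotype comparisons of the main fit. Rrm1 and Prc1 were among the 17 called higher in the average over oxygen levels. Rrm1 was also called higher in normoxia in some alternatives, DESeq2 among them (DESeq2 adjusted p = 0.0314). In the GENCODE M21 annotation 18 members overlap a gene on the opposite strand and 9 a gene on their own strand, among them Pole, Top2a and Cdt1, and 4 have a named pseudogene (Pcna, Tyms, Ccnb1 and Ccnb2). How reads shared with such copies were assigned is not given in the sources used here, so values of these members are uncertain to that extent.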

How the data were processed

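RNA from 11 samples of primary myoblasts was made into libraries with a TruSeq Stranded Total RNA kit, per the labels' protocols. The submitters' processing notes name bcl2fastq, STAR, Picard, HTSeq, RSEM, DESeq2 and mm10, with no roles or versions. The deposited values are a signal in the form of normalized read counts, which the values themselves show to be whole reads divided by the authors by 1 size factor per library. All 100% of the values were whole reads within 0.01 read once each library's step was known, and these reads gave the depth per library, 18707697 to 33613328. No per-sample column was left unused. Whether the strand was used in counting is not given in the sources used here.

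The test covered 14729 of 22104 genes, those that reached a value of 10 in 2 or more libraries, on log2(value + 1), with a pseudocount of 1, so that differences of low genes are understated. limma 3.58.1 (R 4.3.3, variance trend) was fitted to all 4 groups at once with no covariate, and p-values were adjusted over all tested genes by the Benjamini-Hochberg method. Genes with an adjusted p under 0.05 were called. The 5 comparisons were hypoxia within each genotype, genotype within each oxygen level and the knockout hypoxia effect minus the wild-type one. Comparisons that share a group share its libraries, so a high or low wild-type normoxia library enters both the wild-type hypoxia and the normoxia genotype values. Averages over genotype and oxygen were added after seeing the data. The fit was tested on simulated data.

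The members and all gene lists were chosen with earlier results of these data known. Values in every library are given for called members, for the member with the largest absolute difference of each functional group in each comparison, and for Mki67, Pcna, Top2a, Mcm2, Ccnb1, Cdk1 and Cdc20. From the other lists, the 3 called genes with the smallest adjusted p in each direction are named. Alternatives were pseudocounts of 0.5 and 5, no filter or a minimum of 50, TMM and upper quartile scaling, a fit of only the groups compared, no variance trend, leaving out each library, and edgeR 4.0.16 and DESeq2 1.42.0 on the recovered reads. Since the labels name no culture or animal for a library, the p-values rest on a spread between libraries that could be technical alone. Gene names and positions are from GENCODE M21 (GRCm38), and promoter sequences from RefSeq (GRCm38.p6).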

Additional observations from a re-analysis of the deposited data

How the results depend on the processing

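The direction of every called member held under all 21 alternatives of its comparison, and Top2a in normoxia and Pole in hypoxia were called in each. Scaling moved the median of all genes by less than 0.1 on the log2 scale, and the cause of the changes in counts was not tested. With DESeq2 the count lower in wild-type hypoxia was 1 instead of 0, and it was 0 to 1 when single libraries were left out, where the median ranged from -0.0074 to 0.045. The single call of knockout hypoxia became 0 with no filter, with upper quartile scaling, with only the groups compared and with no variance trend, and was 0 to 1 without single libraries. The 8 calls of the normoxia genotype comparison became 4 with only the groups compared and 3 with no variance trend, and ranged from 1 to 11 without single libraries. The 6 in hypoxia became 3 with TMM scaling and 1 with no variance trend, and ranged from 2 to 7. The median difference between the hypoxia effects ranged from -0.069 to 0.011 without single libraries. Of the averages, the 3 higher with hypoxia became 1 with no variance trend and 0 to 3 without single libraries. The 3 lower became 1 with no filter, 1 with TMM scaling, 0 with no variance trend and 0 to 2 without single libraries. The 17 higher in knockout cells became 11 with no variance trend and 10 to 18 without single libraries. No paired analysis was possible because the labels do not tie libraries of different groups to a shared animal or culture. Replicate numbers used here only follow the order of the samples within each group. The members had at least 209 reads in each library.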
